A study of Mus musculus with 12 samples.

Results

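Rif1 and the 3 genes of the protein phosphatase 1 (PP1) catalytic subunits, Ppp1ca, Ppp1cb and Ppp1cc, were placed on maps of chromatin contact with the nuclear lamina in mouse embryos. The 4 genes were chosen by name, because the RIF1 protein recruits PP1, and they stand among 20558 protein-coding genes of the 19 autosomes. The maps are lists of lamina-associated domains (LADs), the long stretches of the genome that lie against the lamina. They were made by DamID, in which a fusion of the bacterial methyltransferase Dam to lamin B1 marks nearby DNA. The 12 samples formed 4 groups of 3 replicates. These were 8-cell embryos given an siRNA against Rif1 (siRif1), 8-cell embryos given a control siRNA (siControl), siRif1 4-cell embryos and siControl 4-cell embryos. Every group had the genotype (C57BL/6J xCBA) x DBA/2J. All zygotes received 20 µM siRNA at 17 to 18 h after hCG. All late 2-cell embryos received, at 46 to 48 h, 20 ng/µL AID-Dam-LaminB1 with 250 ng/µL Tir1, the receptor through which auxin degrades the fusion, and 100 ng/µL membrane-eGFP. The 500 µM auxin was taken away from 66 h in 8-cell embryos and at 54 h in 4-cell embryos. Collection was at 72 to 74 h for 8-cell embryos and at 60 to 62 h for 4-cell embryos. A replicate was a pool of 16 to 24 blastomeres, taken from 2 to 3 embryos in the 8-cell groups and 4 to 6 embryos in the 4-cell groups. Whether the replicates came from separate collections is not given in the labels.

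RIF1 is a large chromatin protein that keeps late-replicating regions late. It carries docking motifs for PP1 and brings the phosphatase to replication origins, where PP1 removes the phosphates that the kinase made of CDC7 and DBF4 puts on the MCM helicase before an origin fires. RIF1 also acts with 53BP1 in the repair of double-strand breaks. PP1 has little specificity of its own: the catalytic subunits made from Ppp1ca, Ppp1cb and Ppp1cc are near-identical enzymes, and a large set of regulatory subunits directs them to glycogen, myosin, chromatin or the centrosome. LADs in most cell types are poor in genes and replicate late. The siRNA acts on the Rif1 transcript and not on the locus, and LAD lists hold no RNA levels, so the knockdown could not be checked in them.

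Each group has 1 list, which the authors made from its 3 replicates, so there is no error between replicates and no test between groups, and read depth is unknown. The lists hold 738 LADs in siRif1 8-cell, 746 in siControl 8-cell, 644 in siRif1 4-cell and 601 in siControl 4-cell embryos, on a grid of 100 kb. They cover 1023.5, 1066.7, 1038.4 and 785.7 Mb in that order, so the siControl 4-cell list is the shortest. A gene counts here as lying in a LAD if its midpoint does, which held for 23.8% of protein-coding genes in siRif1 8-cell, 25.8% in siControl 8-cell, 23.5% in siRif1 4-cell and 24.2% in siControl 4-cell embryos.

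Of the 4 genes, 3 lay outside LADs in all 4 lists: Rif1 itself, Ppp1ca and Ppp1cb. Over all protein-coding genes, 58.3% did so. The exception was Ppp1cc, which was in a LAD in siRif1 8-cell embryos and outside LADs in the other 3 lists. That state was shared by 3.78% of protein-coding genes. Between siRif1 and siControl 8-cell embryos, 7.18% of all genes were LAD in siRif1 alone and 9.18% in siControl alone. At the 4-cell stage, where none of the 4 genes differed in state, these shares were 7.22% and 7.92%.

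The genes had unlike surroundings. Rif1 sat in a narrow opening between LADs, whereas the PP1 genes lay in broad stretches with next to no LAD. The map of LADs around each gene shows this for the 2.5 Mb on either side of its midpoint.

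**Figure D1:**
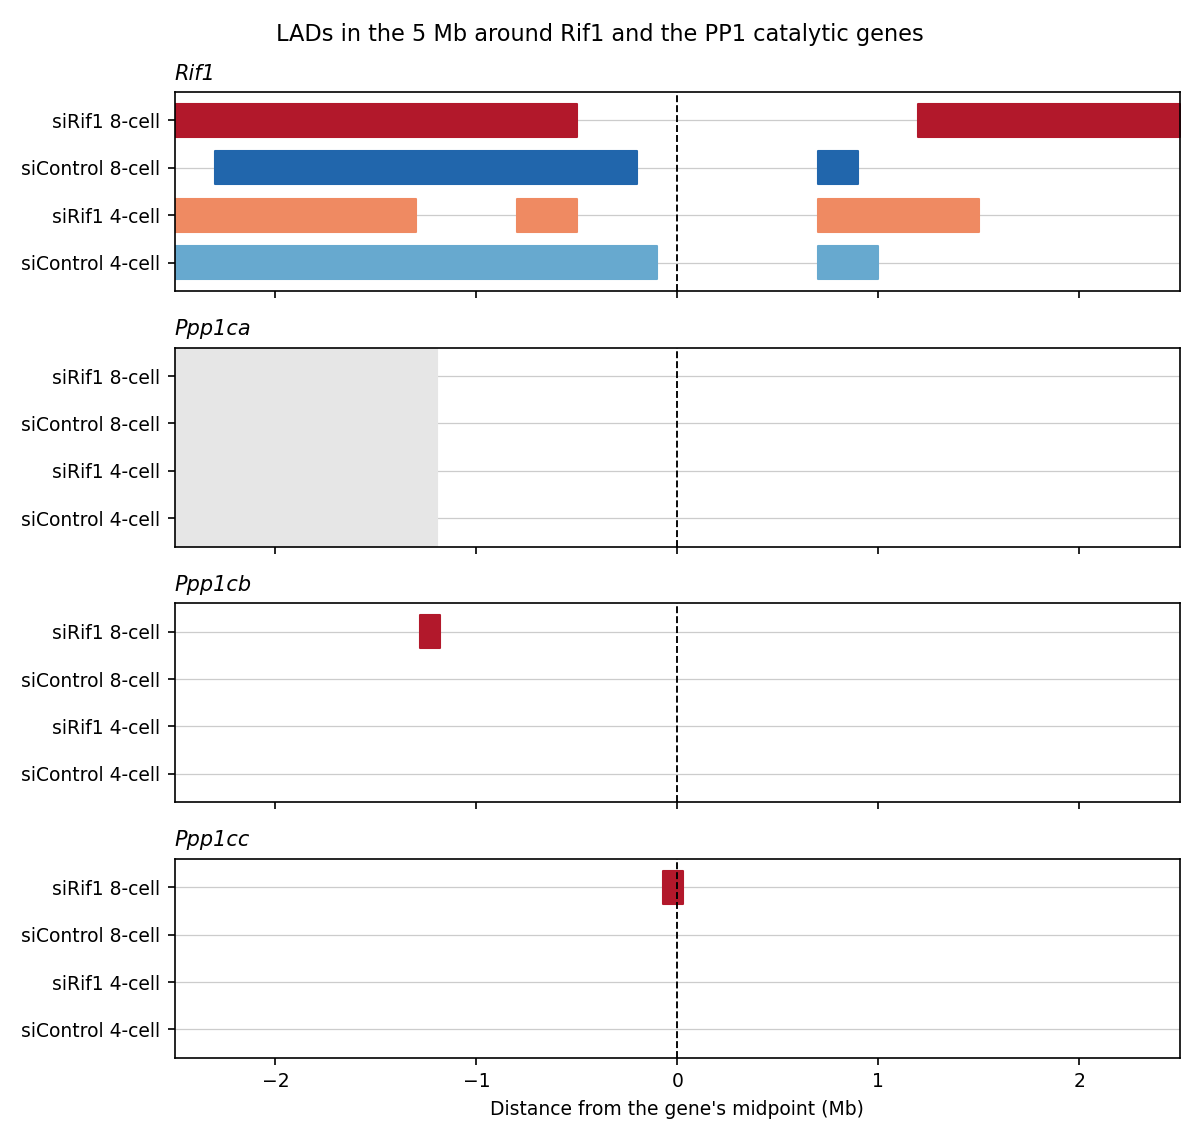
LADs (bars) in the 4 lists over the 5 Mb around each gene; the horizontal axis is the distance from the gene's midpoint in Mb, the dashed line marks the midpoint, and grey is the first 3 Mb of chromosome 19, where no list has a value. Rif1 has LADs on both sides in every list, Ppp1ca has none, and Ppp1cb and Ppp1cc each have 1 LAD of 0.1 Mb, in siRif1 8-cell embryos.

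Rif1 occupies chromosome 2 from 52072815 to 52126769 (GRCm38), a gene of 53.96 kb. The nearest LAD border lay on the side of lower coordinates in all 4 lists. It was 500 kb from the midpoint in siRif1 8-cell embryos and 200 kb in siControl 8-cell embryos. At the 4-cell stage it was 500 kb away in siRif1 and 100 kb in siControl embryos. The border was thus farther from Rif1 in siRif1 than in siControl embryos by 300 kb at the 8-cell and 400 kb at the 4-cell stage, that is by 3 and 4 steps of the grid. The share of all genes with such a shift was not counted. It fell on the same position, 51600000, in the siRif1 lists of both stages. Among genes outside LADs the median distance to a border was 871 kb in siRif1 8-cell, 859 kb in siControl 8-cell, 1048 kb in siRif1 4-cell and 1097 kb in siControl 4-cell embryos. Rif1 was thus nearer to a border than the median gene in each list. Of the genes outside LADs, 33.8% were nearer still in siRif1 8-cell and 15.6% in siControl 8-cell embryos. At the 4-cell stage 30.3% were nearer in siRif1 and 6.48% in siControl embryos.

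The stretch without LAD that holds Rif1 ran from 51600001 to 53300000 in siRif1 8-cell embryos (1.7 Mb) and from 51900001 to 52800000 in siControl 8-cell embryos (0.9 Mb). In siRif1 4-cell embryos it ran from 51600001 to 52800000 (1.2 Mb), and in siControl 4-cell embryos from 52000001 to 52800000 (0.8 Mb). It was longer in siRif1 than in siControl embryos at both stages, which held for 20.8% of the genes outside LADs in all 4 lists. At a single stage this order was common, found for 46.9% of genes outside LADs in both 8-cell lists and for 50.0% at the 4-cell stage. At the 8-cell stage the order rests on a siControl LAD of 0.2 Mb at 52800001 to 53000000. With LADs under 300 kb left out, the stretch was 1.7 Mb in siRif1 and 3.8 Mb in siControl 8-cell embryos. The core of 0.8 Mb from 52000001 to 52800000 was outside LADs in every list, and the median stretch around a gene outside LADs was 4.1 Mb in both 8-cell lists, 4.3 Mb in siRif1 4-cell and 4.8 Mb in siControl 4-cell embryos.

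The LAD on the side of lower coordinates was 4 Mb long in siRif1 8-cell embryos (47600001 to 51600000) and 2.1 Mb in siControl 8-cell embryos (49800001 to 51900000). In siRif1 4-cell embryos a LAD ended at 50800000 and a separate LAD of 0.3 Mb followed (51300001 to 51600000), whereas 1 LAD of 3.6 Mb (48400001 to 52000000) filled this side in siControl 4-cell embryos. On the side of higher coordinates the first LAD was 1.4 Mb long in siRif1 8-cell (53300001 to 54700000) and 0.2 Mb in siControl 8-cell embryos. It measured 0.8 Mb in siRif1 4-cell (52800001 to 53600000) and 0.3 Mb in siControl 4-cell embryos (52800001 to 53100000). The 2 sides of Rif1 therefore differed in opposite ways. At the 8-cell stage the difference within 2.5 Mb at lower coordinates was small, with 2.0 Mb of LAD in siRif1 and 2.1 Mb in siControl embryos. The share of all genes with such opposite sides was not counted. Of the 2.5 Mb at lower coordinates, 80.0% was LAD in siRif1 8-cell against 84.0% in siControl 8-cell embryos, and 60.0% in siRif1 4-cell against 96.0% in siControl 4-cell embryos. Of the 2.5 Mb at higher coordinates, 52.0% was LAD in siRif1 8-cell against 8.0% in siControl 8-cell embryos, and 32.0% in siRif1 4-cell against 12.0% in siControl 4-cell embryos.

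Over the whole 5 Mb, LADs made up 66.0% in siRif1 8-cell embryos and 46.0% in siControl 8-cell embryos, a difference of 20.0 percentage points. At the 4-cell stage they made up 46.0% in siRif1 and 54.0% in siControl embryos, a difference of -8.0 points. A difference of at least 20.0 points in that direction was found for 6.7% of all genes at the 8-cell stage, and one of -8.0 points or lower for 19.4% at the 4-cell stage. The direction was thus unlike in the 2 stages, as for 15.1% of genes, and this difference between stages was not tested. Around the median gene the LAD share of 5 Mb was 27.5% in siRif1 8-cell, 30.5% in siControl 8-cell, 27.7% in siRif1 4-cell and 20.0% in siControl 4-cell embryos, so Rif1 lay in a region richer in LADs than most genes do. The share around Rif1 was higher than that of 87.5% of genes in siRif1 8-cell and 67.3% in siControl 8-cell embryos. At the 4-cell stage it was higher than that of 71.2% in siRif1 and 84.0% in siControl embryos.

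**Figure D2:**
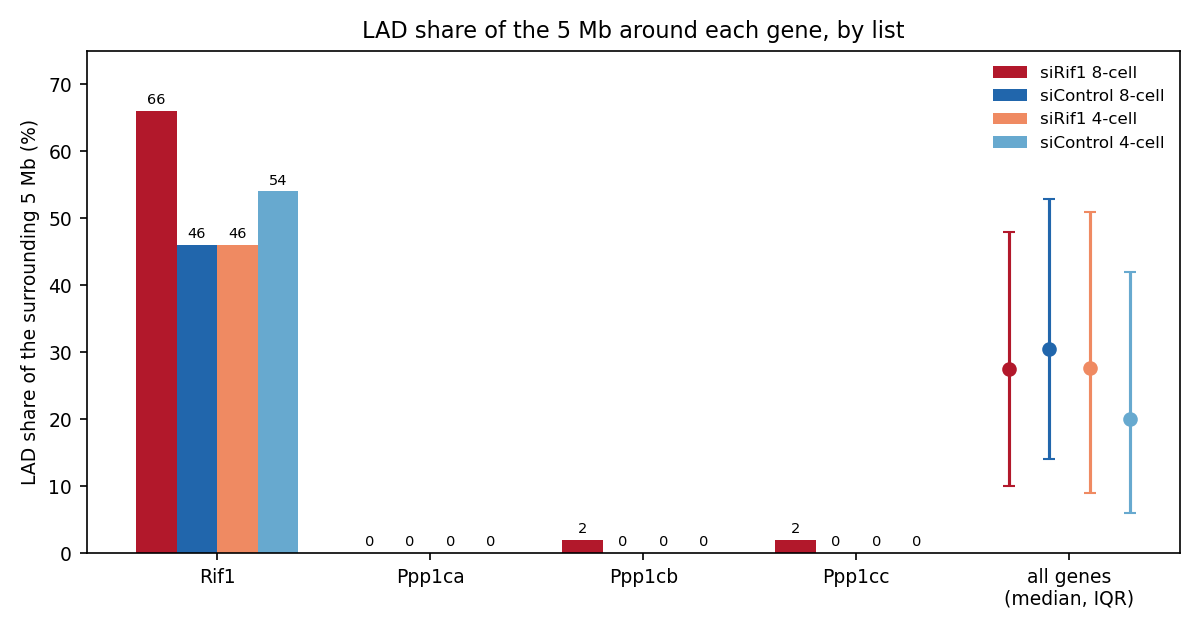
LAD share of the 5 Mb around each gene (bars, %) in the 4 lists; points with bars at the right give the median and the range between quartiles over all 20558 protein-coding genes. Rif1 lies between 46.0 and 66.0%, above the median of all genes in every list, and the PP1 genes lie at 0 or 2.0%.

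The width of the window set the direction. Within 1 Mb centred on Rif1, LADs made up 0.02% in both siRif1 lists, against 30.0% in siControl 8-cell and 40.0% in siControl 4-cell embryos. For this width the share of all genes with such differences was not counted. Within 2 Mb the shares were 25.0% in siRif1 8-cell and 50.0% in siControl 8-cell embryos, a difference of -25.0 points that 14.1% of genes reached. They were 30.0% in siRif1 4-cell and 60.0% in siControl 4-cell embryos, a difference of -30.0 points that 5.94% of genes reached. Close to Rif1 the LAD share was therefore lower in siRif1 embryos at both stages, as it was within 2 Mb of 12.1% of genes. Within 10 Mb it was 65.0% in siRif1 8-cell against 48.0% in siControl 8-cell embryos, and 37.0% in siRif1 4-cell against 39.0% in siControl 4-cell embryos. Within 20 Mb both differences were above 0, with 65.5% in siRif1 8-cell against 50.0% in siControl 8-cell and 44.0% in siRif1 4-cell against 28.5% in siControl 4-cell embryos.

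**Figure D3:**
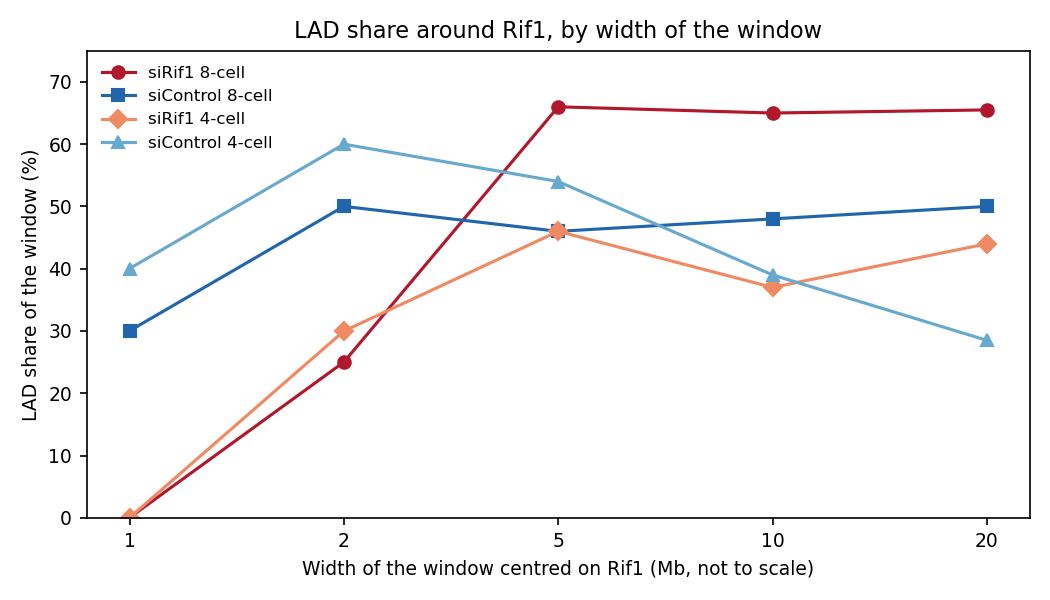
LAD share (%) of windows of 1, 2, 5, 10 and 20 Mb centred on Rif1, 1 line per list; the horizontal axis is not to scale. Both siRif1 lines start at 0.02% and lie below the siControl lines up to 2 Mb; from 5 Mb on the siRif1 8-cell line is the highest, at 65.0 to 66.0%.

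Between the stages, the 5 Mb around Rif1 held 66.0% LAD in siRif1 8-cell against 46.0% in siRif1 4-cell embryos, a difference of 20.0 points or more that 12.1% of genes showed. In siControl embryos the shares were 46.0% at the 8-cell and 54.0% at the 4-cell stage, a difference of -8.0 points, and 18.6% of genes lay that low. Over all genes the median difference between stages was 0 points in siRif1 and 6.0 points in siControl embryos. In this window Rif1 was on the opposite side of 0 from the median gene in siControl embryos. Both differences turned with the width: within 2 Mb the siRif1 difference was -4.98 points, and within 10 Mb the siControl difference was 9.0 points. Of the 50 bins of 100 kb in this window, 13 were LAD in all 4 lists (26.0%) and 8 in none (16.0%). Another 10 (20.0%) were LAD in siRif1 8-cell embryos alone. Over the 24044 bins of the genome analysed, these shares were 17.0%, 35.3% and 6.05%. These 10 bins form 1 stretch, 53600001 to 54600000, which holds the midpoints of Gm38481 and of Rprm, a gene known as a target of p53 in cell cycle arrest.

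Of the 10 other protein-coding genes within 1 Mb of Rif1, 5 differed in state between lists (over all genes, 32.2%). Nmi, an interferon-induced gene, and Rbm43, an RNA-binding protein gene, lie 139 and 170 kb from Rif1 and were LAD in siControl 4-cell embryos alone. Both midpoints lie in the same single bin (51900001 to 52000000), so these 2 genes rest on 1 bin. Tas2r134, a bitter taste receptor gene 472 kb away, was LAD in both siControl lists and in neither siRif1 list. Of all bins in the genome analysed, 1.11% had this pattern, and the share of all genes with it was not counted. Fmnl2, a formin gene, was outside LADs in siRif1 8-cell embryos alone. All 5 were LAD in siControl 4-cell embryos. Tnfaip6, the giant muscle gene Neb, Arl5a, the calcium channel subunit gene Cacnb4 and the endosomal sorting gene Stam2 share the core stretch with Rif1 and were outside LADs in all 4 lists.

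Ppp1ca, the gene of the alpha catalytic subunit, lies at the start of chromosome 19 (4192174 to 4195419) and is 3.25 kb long. The nearest LAD border lay at higher coordinates in all lists, 4.21 Mb from the midpoint in siRif1 8-cell embryos and 3.31 Mb in siControl 8-cell embryos. It was 6.81 Mb away in siRif1 4-cell and 6.71 Mb in siControl 4-cell embryos. Between siRif1 and siControl embryos the distances differed by 900 kb at the 8-cell and by 100 kb, 1 step of the grid, at the 4-cell stage. Both 8-cell lists had the border nearer than the 4-cell list of the same siRNA, by 2600 kb in siRif1 and 3400 kb in siControl embryos. No LAD lay in the 3.69 Mb of the window that is above the first 3 Mb of the chromosome, and a LAD list cannot separate a region without contact from one without data. A window empty in all 4 lists was found for 3.24% of genes.

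Ppp1cb, the gene of the beta catalytic subunit, which myosin phosphatase uses, lies on chromosome 5 (32458848 to 32493713, 34.9 kb). The nearest border was 1.18 Mb away in siRif1 8-cell embryos, against 4.98 Mb in siControl 8-cell embryos. At the 4-cell stage it was 5.18 Mb away in siRif1 and 3.58 Mb in siControl embryos. The near border in siRif1 8-cell embryos belongs to a LAD of a single bin (31200001 to 31300000), which holds Ppm1g, a phosphatase gene of another family, Zfp513, Nrbp1, Krtcap3, Ift172 and Fndc4. This LAD stood alone, with the next LAD 4.2 Mb away at lower and 7.9 Mb at higher coordinates. Without LADs under 300 kb the border was 6.72 Mb from Ppp1cb. The 5 Mb around the gene were 2.0% LAD in siRif1 8-cell embryos and 0% in the other 3 lists.

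Ppp1cc, the gene of the gamma catalytic subunit, lies on the same chromosome (122154967 to 122175273, 20.3 kb). Its LAD in siRif1 8-cell embryos was also a single bin (122100001 to 122200000), which covers the gene from end to end together with the midpoints of Ccdc63, Gm52787 and the cardiac and slow muscle myosin light chain gene Myl2. These 3 neighbours were outside LADs in the other 3 lists, as Ppp1cc was. The next LAD was 12.4 Mb away at lower and 3.4 Mb at higher coordinates. The midpoint of Ppp1cc was 35 kb inside this LAD. In the other lists it was far outside, with the nearest border 3.53 Mb away in siControl 8-cell embryos and 3.43 Mb in both siRif1 and siControl 4-cell embryos. With LADs under 300 kb left out, Ppp1cc was outside LADs in all 4 lists.

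LADs of a single bin made up 61 of 738 in siRif1 8-cell embryos (8.27%) and 42 of 746 in siControl 8-cell embryos (5.63%). They made up 21 of 644 in siRif1 4-cell (3.26%) and 37 of 601 in siControl 4-cell embryos (6.16%). The median gap from such a LAD to the next one was 0.8 Mb in both 8-cell lists. In siRif1 8-cell embryos 4 of the 61 stood 3 Mb or more from any other LAD, and the bins by Ppp1cb and Ppp1cc are 2 of these 4. In siControl 8-cell embryos 3 of 42 stood so far apart. Whether such bins mark contact or the limit of the call was not tested.

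The sequences around a transcript start of Ppp1cc and Ppp1cb are shown because that of Ppp1cc lies within the lone LAD while that of Ppp1cb does not. They are from RefSeq (GRCm38.p6) and span 250 bases before to 50 after the transcript start that the promoter table uses, plus strand, at chr5:122158025-122158324 for Ppp1cc and chr5:32458720-32459019 for Ppp1cb. This start is not the outermost end of the gene's annotated span: the Ppp1cc window begins 3058 bases inside the span, and the Ppp1cb window begins 128 bases before it. Of the 4 genes, these 2 were matched in the table of promoters. Capitals mark the GC box GGGCGG or its reverse complement CCGCCC, the 2 strands of a motif known to be bound by Sp1-family factors.
Ppp1cc: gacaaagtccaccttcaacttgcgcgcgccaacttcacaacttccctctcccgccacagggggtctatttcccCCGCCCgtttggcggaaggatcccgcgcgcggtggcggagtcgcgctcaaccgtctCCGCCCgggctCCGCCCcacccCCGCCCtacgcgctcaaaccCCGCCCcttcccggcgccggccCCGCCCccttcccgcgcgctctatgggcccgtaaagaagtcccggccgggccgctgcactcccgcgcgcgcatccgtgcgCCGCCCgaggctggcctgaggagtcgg
Ppp1cb: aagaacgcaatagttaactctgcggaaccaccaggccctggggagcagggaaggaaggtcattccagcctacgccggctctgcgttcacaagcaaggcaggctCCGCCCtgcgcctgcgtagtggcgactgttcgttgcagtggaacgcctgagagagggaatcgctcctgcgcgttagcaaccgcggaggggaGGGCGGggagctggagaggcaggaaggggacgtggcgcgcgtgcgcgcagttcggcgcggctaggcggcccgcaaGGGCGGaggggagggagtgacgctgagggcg

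The Ppp1cc sequence holds 7 GC boxes and 42 CpG dinucleotides, and is 73.0% G or C. The Ppp1cb sequence holds 3 GC boxes and 31 CpG dinucleotides, and is 67.3% G or C. Both are CpG-rich for mouse promoters: over the 20078 promoters of autosomal protein-coding genes in the table, the median was 14 CpG dinucleotides and 57.0% G or C, and 47.0% held a GC box on either strand. Promoters of genes in siRif1 8-cell LADs had a median of 7 CpG dinucleotides, against 15 for genes outside them. These medians were 6 and 16 in siControl 8-cell, 9 and 15 in siRif1 4-cell, and 13 and 14 in siControl 4-cell embryos. Of the promoters of genes in siRif1 8-cell LADs, 96.5% had fewer CpG dinucleotides than Ppp1cc.

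**Figure D4:**
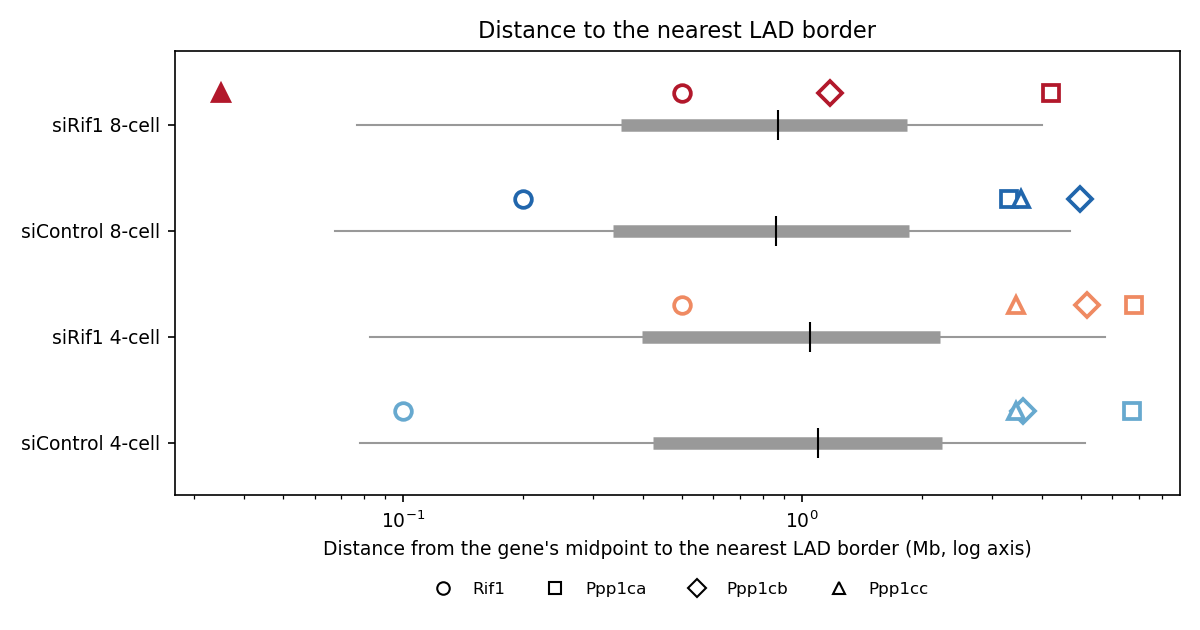
Distance from each gene's midpoint to the nearest LAD border (Mb, log axis) in the 4 lists; open symbols are outside and filled symbols inside a LAD. Grey bars run from the lower to the upper quartile, thin lines from the 5th to the 95th percentile, and ticks mark the median, over all protein-coding genes outside LADs in that list. Rif1 is left of the median in every list, and the PP1 genes are right of it except Ppp1cc in siRif1 8-cell embryos.

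By distance outside LADs, Rif1 came nearest to a border in all 4 lists. In siRif1 8-cell embryos Ppp1cb and then Ppp1ca followed, while Ppp1cc was inside a LAD. In siControl 8-cell embryos the order was Rif1, Ppp1ca, Ppp1cc and Ppp1cb, and Ppp1ca and Ppp1cc were 3.31 and 3.53 Mb from a border. In siRif1 4-cell embryos the order was Rif1, Ppp1cc, Ppp1cb and Ppp1ca. It was the same in siControl 4-cell embryos, where Ppp1cc and Ppp1cb (3.43 and 3.58 Mb) were 1 to 2 grid steps apart. With no replicate error, none of these neighbours in order can be said to differ beyond the spread.

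The genes also differed in gene density, which the choice of genes did not use. The 5 Mb around Rif1 hold the midpoints of 19 protein-coding genes, or 3.8 per Mb, and 6.18% of genes had sparser surroundings. Ppp1ca had 39.8 per Mb, Ppp1cc 21.2 and Ppp1cb 18.8, all above the median of 13.2. Across the 4 genes the one in the sparsest region was the one with LADs around it, which describes 4 loci and is no test.

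The genes most like each of the 4 were found by the mean absolute difference of the LAD shares of 5 Mb over the 4 lists, among genes on other chromosomes. For Rif1, 4 genes tied at 3.0 percentage points, of which the first 3 by symbol were Dtx4, Mpeg1 and Olfr1441, which lie close together on chromosome 19 and share most of their window. Unlike Rif1, these 3 were in LADs in all 4 lists. For Ppp1ca, 599 genes tied at 0 points, and for Ppp1cb and Ppp1cc 38 genes did. Of the tied genes, the first by symbol were 1110008P14Rik, 1700001O22Rik and 1700007K13Rik for Ppp1ca. For both Ppp1cb and Ppp1cc they were the protease gene Adam17, the chromatin remodelling gene Arid1a and Asap2.

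PP1 acts through its regulatory subunits, and 39 autosomal genes are named Ppp1r with a number and at most 1 letter. Ppp1r14bl, whose name has a further letter, is not counted among them, and it was outside LADs in siRif1 8-cell embryos alone; it was named after its values were seen. Of the 39, 26 (66.7%) were outside LADs in all 4 lists, beside 58.3% of all genes, 4 were LAD in all 4 (10.3%, beside 9.47%) and 9 differed between lists (23.1%, beside 32.2%). The nuclear subunits Ppp1r8 (NIPP1), Ppp1r10 (PNUTS) and Ppp1r7 (SDS22), the inhibitor Ppp1r2, and Ppp1r15a and Ppp1r15b, which direct PP1 to the translation factor eIF2 alpha, were among those outside LADs throughout. In LADs throughout were Ppp1r12a, the targeting subunit of myosin phosphatase, the inhibitors Ppp1r1a and Ppp1r1c, and Ppp1r3d, a glycogen-targeting subunit. Around Ppp1r1a the LAD share was 6.98% in siControl 8-cell and siRif1 4-cell embryos. With LADs under 300 kb left out, Ppp1r1a was outside LADs in these lists, where the counts of subunit genes in LADs became 7 and 6. Counts in LADs were 6 in siRif1 8-cell, 8 in siControl 8-cell, 7 in siRif1 4-cell and 10 in siControl 4-cell embryos, or 15.4, 20.5, 17.9 and 25.6% of the 39, beside 23.8, 25.8, 23.5 and 24.2% of all genes. Their median LAD share of 5 Mb was 20.0, 28.7, 18.0 and 18.0% in that order, beside 27.5, 30.5, 27.7 and 20.0% for all genes.

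Between siRif1 and siControl 8-cell embryos, 2 of the 39 were LAD in siRif1 alone and 4 in siControl alone, beside 7.18% and 9.18% of all genes. The first 2 were Ppp1r35, a centrosomal protein gene, and the glycogen-targeting gene Ppp1r3c. The 4 were the inhibitor genes Ppp1r11 and Ppp1r14c, the glycogen-targeting gene Ppp1r3g and Ppp1r16b, a subunit known from endothelial cells. The midpoint of Ppp1r35 was 80 kb inside its LAD in siRif1 8-cell embryos and 1420 kb from the nearest border in siControl 8-cell embryos. That of Ppp1r3c was 66 kb inside its LAD in siRif1 8-cell embryos. In siControl 8-cell embryos it was 34 kb from a border, less than the width of a bin. The LAD share of the window around Ppp1r3c went the other way, with 28.0% in siRif1 8-cell against 70.0% in siControl 8-cell embryos. At the 4-cell stage none was LAD in siRif1 alone and 3 were LAD in siControl alone, namely Ppp1r11, Ppp1r21 and Ppp1r37, beside 7.22% and 7.92% of all genes. Ppp1r11 was thus LAD in both siControl lists and in neither siRif1 list. Between the stages, 2 were LAD in siRif1 8-cell and not in siRif1 4-cell embryos (Ppp1r35 and Ppp1r3c) and 3 the reverse, namely Ppp1r14c, Ppp1r3g and Ppp1r17, an inhibitor known from Purkinje cells. In siControl embryos Ppp1r16b was LAD at the 8-cell stage alone, and Ppp1r17, Ppp1r21 and Ppp1r37 at the 4-cell stage alone. Over all genes, 8.65% were LAD in siRif1 8-cell and not in siRif1 4-cell embryos and 8.41% the reverse, and 10.9% and 9.39% were so in siControl embryos.

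**Figure D5:**
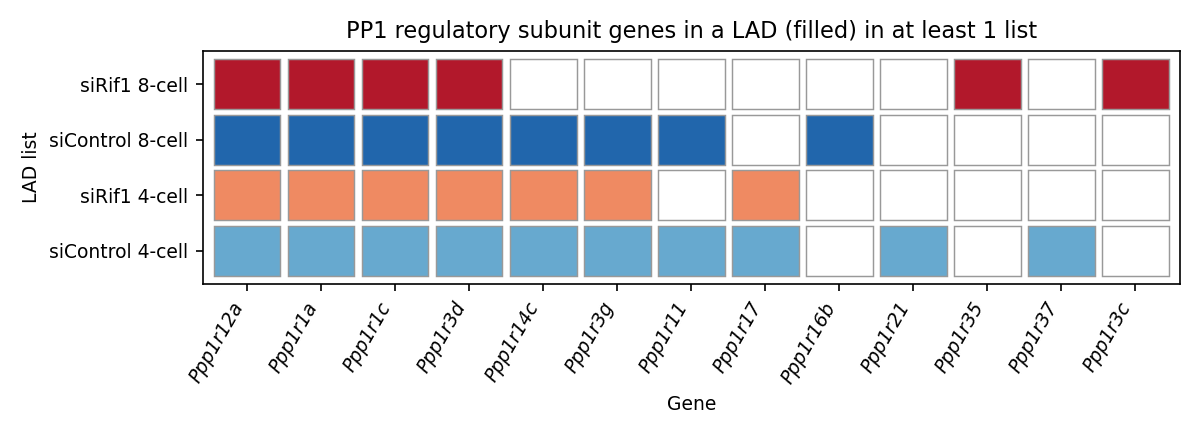
The 13 of 39 PP1 regulatory subunit genes that lie in a LAD in at least 1 list; columns are genes, rows are lists, and a filled square means that the gene's midpoint is in a LAD. Ppp1r12a, Ppp1r1a, Ppp1r1c and Ppp1r3d are filled in all 4 rows, and Ppp1r35 and Ppp1r3c in siRif1 8-cell embryos alone.

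Other proteins that bind PP1 did not differ in state: of 11 genes, Mki67, which encodes the Ki-67 protein of the chromosome surface, and Phactr3 were LAD in all 4 lists and 9 in none, beside 32.2% of all genes that differed, 9.47% LAD in all lists and 58.3% in none. Of 9 catalytic genes of other phosphatases, the calcineurin gene Ppp3ca was LAD in all 4 lists, 5 were LAD in none (55.6%) and 3 differed (33.3%), close to the 58.3% and 32.2% of all genes. Ppp5c and Ppp6c were LAD in siControl 8-cell embryos alone, with midpoints 16 and 10 kb from a border, under 1 bin. Ppp4c was LAD in siControl 4-cell embryos alone, with its midpoint 611 kb from a border.

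Of 5 genes for the kinase and helicase parts that RIF1 and PP1 oppose at origins, 2 were LAD in none and 2 differed (40.0% each, beside 58.3% and 32.2% of all genes). Dbf4, the activating subunit of the kinase, was LAD in all 4 lists. Cdc7, the kinase itself, was LAD in siControl 4-cell embryos alone. The helicase gene Mcm4 was LAD in siRif1 4-cell embryos alone, where its 5 Mb were 54.0% LAD, against 12.0% in siControl 4-cell embryos. At the 8-cell stage the order was the other way, with 0% in siRif1 and 26.0% in siControl embryos. Mcm2 and Mcm6 were outside LADs throughout. Of 8 genes that act with or against RIF1 in break repair, 5 were outside LADs in all lists (62.5%), among them Trp53bp1. The other 3 differed (37.5%), and both shares were again close to those of all genes. Atm, a kinase that signals breaks, was LAD in siRif1 8-cell embryos alone. Its 5 Mb were 66.0% LAD there and 42.3% in siControl 8-cell embryos, against 92.0% in siRif1 4-cell and 82.0% in siControl 4-cell embryos. Brca1, which opposes RIF1 in the choice of repair pathway, was LAD in siRif1 4-cell embryos alone, 20 kb from a border. The LAD that holds Brca1 was a single bin and the only LAD in its 5 Mb (2.0%). The shieldin gene Shld3 was outside LADs in siRif1 8-cell embryos alone.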

How the data were processed

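DamID maps of lamina contact were made from 12 samples in 4 groups of 3. The authors deposited 1 LAD list per group, made from all 3 replicates per the series' design text. The deposited lists give the start and end of each LAD in bases on a grid of 100 kb, and the field for a score holds 0 in each row and was left aside. Trimmomatic, Bowtie2, SAMtools and Picard were used with mm10 (GRCm38), per the submitters' processing notes. How LADs were called is not given in the sources used here, nor is a correction for free Dam, so the threshold and depth behind a LAD are unknown.

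Genes came from RefSeq GRCm38.p6, autosomes alone, without entries on scaffolds. Ppp1r3f, on chromosome X, was not analysed here. A gene was in a LAD when its midpoint was. Windows were centred on the midpoint and clipped to the sequence above 3 Mb and to the last LAD or gene. Shares of all genes are descriptions, and no p-value was computed. Positions are 1-based. Python 3.11.15, pandas 2.3.3 and NumPy 2.4.6 were used, and the interval steps were tested on simulated lists.

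The members, gene lists and alternatives were chosen with earlier results of these data known. Named genes are the 4, list genes that differ between lists, neighbours within 1 Mb that differ (1 of them is not reported here) and the 3 genes most like each, with ties by symbol. Genes outside this rule, such as list genes with the same state in all lists, others in a bin of interest and Ppp1ccb, were named after their values were seen. Alternatives were leaving out LADs under 300 kb, joining LADs across gaps of 200 kb or less, windows of 2 and 10 Mb, any base of the gene in a LAD and distance from the gene's nearest end. The stretch without LAD around Rif1 and the window of 2 Mb under these LAD filters were added after the data were examined.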

Additional observations from a re-analysis of the deposited data

Results flagged for a closer look

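The siRif1 minus siControl difference in the LAD share of the 5 Mb around Rif1 was 20.0 percentage points at the 8-cell and -8.0 points at the 4-cell stage, 28.0 points apart. It drew notice because the 2 stages lie on opposite sides of 0, each with 1 pooled list per group, and the difference between stages was not tested. Such a pair of directions was found around 15.1% of genes.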

How the results depend on the processing

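Of 216 values under alternatives, 189 did not take the opposite sign and stayed within the range set for them. This range was the binomial interval over bins for shares and their differences, 1 bin for distances and 1.5 times for counts and lengths. It was also 1.5 times for the 2 Mb differences added after the data were examined. A difference that was 0, or that became 0, counted as not reversed. Without LADs under 300 kb, the 8-cell siRif1 minus siControl difference around Ppp1cb and Ppp1cc went from 2 to 0 points in this way. Neighbouring bins are not independent, so this range is a yardstick and not an error. Some of the 189 values could not change, namely shares of 0 around the PP1 genes and differences between such shares. A window without LAD stays at 0 when short LADs are left out, short gaps are joined or the window is narrowed. Such values say nothing about robustness, and their number among the 189 was not counted. Leaving out LADs under 300 kb gave 0 of the 4 genes in LADs in siRif1 8-cell embryos, a share of 0% around Ppp1cb and Ppp1cc there, and distances to a border of 6724 kb for Ppp1cb and 3435 kb for Ppp1cc. It also gave a stretch without LAD around Rif1 of 3.8 Mb in siControl 8-cell embryos, so that siRif1 minus siControl was -2.1 Mb, and it moved the difference in the 2 Mb around Rif1 at the 8-cell stage to -15 points. In each case a LAD of under 300 kb was the feature removed.

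With a window of 2 Mb the share around Rif1 was 25.0% in siRif1 8-cell and 30.0% in siRif1 4-cell embryos. The siRif1 minus siControl difference was then -25 points at the 8-cell and -30.0 points at the 4-cell stage, the 8-cell minus 4-cell difference in siRif1 was -4.98 points, and the share around Ppp1cb in siRif1 8-cell embryos was 0%. With 10 Mb the share around Rif1 was 39.0% in siControl 4-cell embryos and the 8-cell minus 4-cell difference in siControl was 9.0 points. Around Ppp1ca it was 12.8% in siRif1 8-cell and 19.4% in siControl 8-cell embryos, with 8-cell minus 4-cell differences of 12.8 and 19.4 points in siRif1 and siControl. Around Ppp1cb it was 11.2% in siControl 4-cell embryos, with differences of -11.2 points (siRif1 minus siControl, 4-cell) and -11 points (8-cell minus 4-cell, siControl). Around Ppp1cc it was 16.7% in siRif1 8-cell, 14.7% in siControl 8-cell and 15.7% in both 4-cell lists. Bridging gaps, any base of the gene in a LAD and the distance from the gene's end moved no value out of its range.

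No paired analysis was possible because each list pools its 3 replicates, which also means that no replicate was left out. Depth is unknown, so its effect was not tested.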

Other observations

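Ppp1ccb, a protein-coding gene on chromosome 7 (119739910 to 119742244) whose synonyms in the annotation include Ppp1cc, is not among the 4 genes and was looked at after their values were seen. Ppp1ccb lay in a LAD in siRif1 8-cell embryos, as Ppp1cc did, and, unlike the 4 genes, also in siRif1 4-cell and siControl 4-cell embryos. In siControl 8-cell embryos it was outside LADs, 41 kb from a border. The LAD share of its 5 Mb was 76.0% in siRif1 8-cell, 59.2% in siControl 8-cell, 67.2% in siRif1 4-cell and 80.0% in siControl 4-cell embryos.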
